A study of Homo sapiens with 12 samples.

Results

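FOX2 and TDP43 were compared in P-KO cells, from 4 of the 12 iCLIP libraries of the series: FOX2 P-KO replicates 1 and 2 against TDP43 P-KO replicates 1 and 2. The cells were H9, an established human embryonic stem cell line, and both groups share the P-KO genotype, whose source label reads SPA PKO. The labels do not say how the knockout was made or whether the cells are a single clone, and the series design calls the 2 libraries of a group biological replicates. Crosslinking used ultraviolet light (400 mJ/cm2) in every library. The antibody was directed against RBM9 (RBFOX2, written FOX2 here) or against TDP43. The matching WT libraries, 2 for FOX2 and 2 for TDP43, came from H9 cells labelled WT and treated in the same way. They entered the fit to estimate the spread and gave a second comparison between other libraries. Since the fit used them, that comparison is not independent of the P-KO calls. The 4 hnRNP M libraries were not compared here.

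FOX2 and TDP43 are nuclear RNA-binding proteins that regulate alternative splicing, and both bind mainly within introns. FOX2 recognises GCAUG-like elements, and its effect on an exon depends on the side from which it binds. TDP43 binds GU-rich stretches, represses the use of cryptic exons and is known for its aggregation in amyotrophic lateral sclerosis and for regulating its own mRNA. SPA RNAs are long noncoding transcripts with a snoRNA at the 5′ end and a poly(A) tail, made from the Prader-Willi locus, and they bind both proteins in pluripotent cells. The comparison asks on which transcripts and introns each protein was found where these RNAs are missing. iCLIP marks the nucleotide at which a protein was crosslinked, and its counts follow the amount of an RNA as well as the binding to it. RNA amounts were not measured here, and the labels do not say whether the FOX2 and TDP43 libraries came from the same cultures.

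Each deposited line is 1 nucleotide with a count that covers its surroundings, so positions were kept from the highest count downwards and at least 11 nt apart on a strand. The counts of these windows were summed per transcript, or per intron of a transcript, and are called window counts. The 4 libraries held 232174 and 648651 window counts for FOX2 and 172613 and 292694 for TDP43. The FOX2 windows were also higher: their mean was 3.84 and 5.76 counts against 3.02 in both TDP43 libraries, and the part of this difference in the results below was not tested. The stretch chr15:25000001-26000000 on the plus strand of hg19, which contains the SPA signal, held 0.0823% and 0.119% of FOX2 counts and 0.0707% and 0.0530% of TDP43 counts. The mean over the 4 P-KO libraries was 0.0813% against 1.31% over the 4 WT libraries. Transcripts are named in the files by Ensembl identifiers, which could not be paired with gene symbols here. They are therefore given by their place in hg19, from the first to the last window seen in the 4 P-KO libraries, and the chosen lists of genes and markers of the stem cell state were not looked up. No sequence is shown, since no genome of this build was used here.

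Of 6562 transcripts tested, 476 (7.25%) differed between the proteins in P-KO cells, 415 with more FOX2 (6.32%) and 61 with more TDP43 (0.93%). The test was edgeR's quasi-likelihood F test with Benjamini-Hochberg adjustment over all transcripts tested and a threshold of 0.05. Fold changes are log2 of FOX2 over TDP43, and their median was 4.62 over the 415 transcripts, -4.65 over the 61 and -0.10 over all tested. The 415 transcripts held 26.9% and 29.4% of all FOX2 window counts, against 4.70% and 3.60% of all TDP43 counts. The 61 transcripts held 3.00% and 4.04% of TDP43 counts and 0.118% and 0.141% of FOX2 counts. TDP43 was listed at 0 in both libraries for 94 of the 415, and FOX2 for 25 of the 61.

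The balance of the directions depended on the scaling. Library totals were adjusted by TMM, which assumes that most transcripts do not differ and gave the FOX2 libraries factors of 0.875 and 0.629 against 1.25 and 1.03 for TDP43. With plain library totals, 314 transcripts were higher in FOX2 and 256 in TDP43, and the median of all transcripts moved to -0.72. Non-overlapping libraries alone are no sign of a preference here, since they occurred in 58% of all tested transcripts, 19.1% with FOX2 higher and 38.8% with TDP43 higher. The number of calls also rested on single libraries: it was 138 without TDP43 P-KO replicate 2 and 264 without TDP43 P-KO replicate 1.

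**Figure D1:**
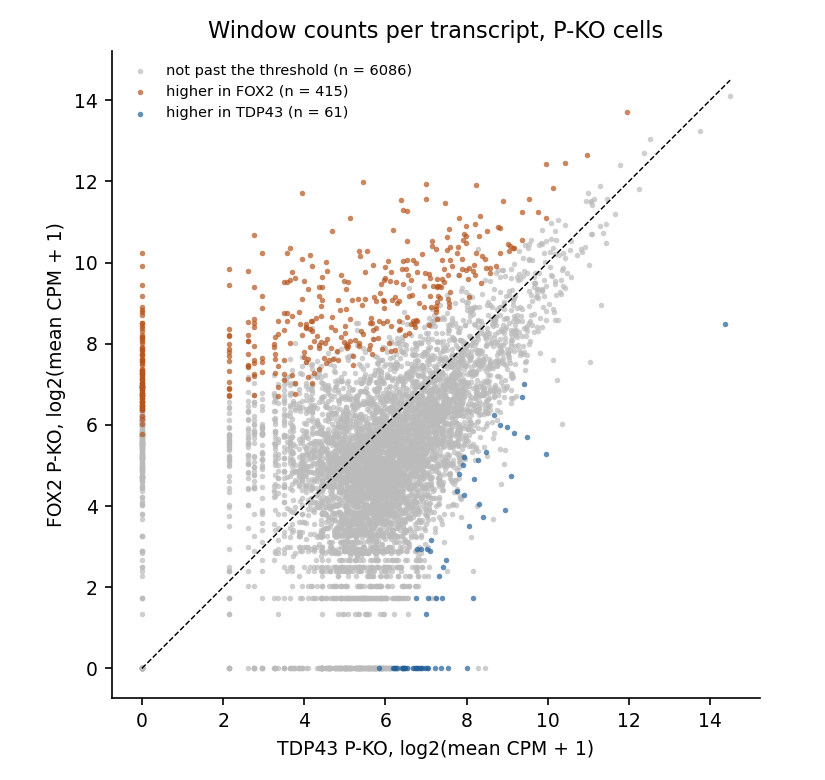
Each point is 1 of the 6562 tested transcripts, placed by the mean counts per 1000000 window counts (CPM) of the 2 TDP43 P-KO libraries (x axis) and the 2 FOX2 P-KO libraries (y axis), both as log2(CPM + 1); the dashed line marks equal values. The 415 transcripts past the threshold with more FOX2 lie well above the line, many of them at 0 for TDP43, and the 61 with more TDP43 lie below it.

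The transcripts with more FOX2 were led by loci with intronic signal. The smallest p belonged to ENST00000481585.1 at chr3:149680880-149686081 on the minus strand, with 337 and 614 counts in FOX2 and 2 and 3 in TDP43. Its log2 fold change was 7.27 (SE 0.641; edgeR quasi-likelihood adjusted p = 0.00170), and all its FOX2 counts lay in 1 intron. The highest window, at 149683747, had 50 and 80 counts in the FOX2 libraries and none listed in TDP43.

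ENST00000251527.5, at chr7:158523921-158620977 on the minus strand, carried more counts, 852 and 2690 in FOX2 against 25 and 32 in TDP43 (log2 5.57, SE 0.525; edgeR quasi-likelihood adjusted p = 0.00170). Its FOX2 signal came from 4 introns, 1 of which held 63.1% of it. The highest window, at 158550393, had 63 and 375 FOX2 counts against 0 and 3 for TDP43. The site was picked as the highest FOX2 window of a transcript already past the threshold, so these counts describe it and add no support.

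Other loci had FOX2 signal with little or no TDP43 signal listed. At chr19:513329-514586 on the plus strand, FOX2 had 300 and 725 counts in 41 and 51 windows of 1 intron, while both TDP43 libraries were listed at 0 (edgeR quasi-likelihood adjusted p = 0.00188). At chr20:62299000-62322515 on the plus strand, FOX2 had 132 and 538 counts and TDP43 0 and 2. At chr3:195502885-195528583 on the minus strand, 1 of the 10 transcripts with the highest FOX2 share, FOX2 had 810 and 3002 counts and TDP43 0 and 25 (log2 6.95, SE 1.21; edgeR quasi-likelihood adjusted p = 0.00774). The list leaves out counts under 2, so a value of 0 is not a measured absence.

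Other FOX2 transcripts had moderate TDP43 signal as well. At chr9:139782337-139801709 on the plus strand, FOX2 had 709 and 1959 counts, or 3037 ± 23.8 CPM (SD, n = 2), and TDP43 24 and 33 counts, or 126 ± 18.6 CPM. At chr11:3405009-3427738 on the plus strand, FOX2 had 768 and 1546 counts and TDP43 37 and 41. The FOX2 libraries agreed closely in CPM at the first of these and differed more at the second, where the mean was 2846 ± 654. Fewer TDP43 counts than at either of these were listed for the loci at chr1:33722599-33743777 (464 and 1552 against 7 and 8), chr13:111106819-111165276 (316 and 1424 against 12 and 22), chr17:17043418-17088013 (237 and 666 against 3 and 8) and chr6:131161412-131201798 (158 and 523 against 7 and 6). Their log2 fold changes ranged from 5.24 to 6.65, with the same edgeR quasi-likelihood adjusted p of 0.00188.

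Some of the transcripts with more FOX2 were bound in exons. At chr2:231742797-231743819 on the plus strand, all FOX2 counts were exonic, with 248 and 816 in FOX2 and 4 and 3 in TDP43 (log2 6.79, SE 0.712; edgeR quasi-likelihood adjusted p = 0.00188), and a single window at 231743790 held 303 of the 816. By the number of windows, 8 and 14 against 1 and 1, it did not pass. At chr13:113478421-113540852 on the plus strand, FOX2 had 304 and 1407 counts and TDP43 2 and 11, and introns held 1.05% of the FOX2 counts. Over all 415, exons held more than introns in 81 transcripts (19.5%), against 8.36% of the 2536 transcripts not past the threshold with a mean FOX2 count of at least 20.

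The transcripts with more TDP43 were fewer and mostly of lower count, with 1 exception. ENST00000458748.1, at chr1:109642870-109643098 on the plus strand, spans 229 nt and had 2954 and 7417 TDP43 counts against 83 and 229 in FOX2 (log2 -5.33, SE 0.604; edgeR quasi-likelihood adjusted p = 0.00188). All its counts were exonic. It held 1.71% and 2.53% of all TDP43 counts and 0.0357% and 0.0353% of all FOX2 counts. The highest window, at 109642897, had 227 and 1486 counts in the TDP43 libraries and 0 and 27 in FOX2. In both proteins the signal was spread over few windows, 6 and 9 for TDP43 and 3 and 6 for FOX2.

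Next in p was ENST00000250894.4 at chr16:1772259-1819165 on the plus strand, an intronic case with 147 and 334 TDP43 counts and 7 and 30 FOX2 counts (log2 -4.03, SE 0.605; edgeR quasi-likelihood adjusted p = 0.00416). A single intron held 93.1% of its TDP43 counts. In that intron, at chr16:1784748-1790475, TDP43 had 129 and 319 counts in 35 and 44 windows, and neither FOX2 P-KO library had a listed count. The FOX2 counts of the transcript thus lay outside this intron.

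Of the other transcripts named for TDP43, several were intronic. At chr7:143078765-143087757 on the plus strand, TDP43 had 40 and 89 counts and FOX2 3 and 5 (log2 -4.16, SE 0.715; edgeR quasi-likelihood adjusted p = 0.00732). At chr19:47729158-47735448 on the minus strand, TDP43 had 52 and 78 counts and FOX2 0 and 3. At chr16:12996390-13001163 on the plus strand, TDP43 had 34 and 39 counts and FOX2 was listed at 0 in both libraries, as it was at chr22:17626486-17629214 on the minus strand, where TDP43 had 18 and 45. The 2 introns of a longer transcript at chr17:73321106-73389424 (minus strand) held 16 and 50 TDP43 counts with FOX2 listed at 0. FOX2 in WT cells had 22 and 16 counts there, 3 and 6 at the chromosome 22 locus and none listed at chr16:12996390-13001163. At chr16:49561720-49888712 on the minus strand, a span of 326993 nt, TDP43 had 49 and 103 counts and FOX2 3 and 12, over 4 introns. Without TDP43 P-KO replicate 2 the chromosome 7 locus and this one did not pass. The chromosome 7 locus also did not pass with all 12 libraries or by the number of windows, the chromosome 19 locus by the number of windows, and the chromosome 22 locus with a p or q of at most 0.01.

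Exonic signal was present on the TDP43 side too. At chr19:47278253-47285759 on the minus strand, TDP43 had 78 and 189 counts, of which introns held 0.749%, and FOX2 4 and 22 (log2 -3.70, SE 0.631; edgeR quasi-likelihood adjusted p = 0.00709). At chr1:11083480-11084031 on the plus strand, a stretch of 552 nt, TDP43 had 27 and 105 exonic counts and FOX2 was listed at 0 in both libraries (edgeR quasi-likelihood adjusted p = 0.0133). At chr1:21100775-21101486 on the minus strand the counts were 29 and 60 against 0 and 0, and at chr10:102304055-102317772 on the plus strand 53 and 79 against 6 and 15, again all exonic. The chromosome 19 locus did not pass without TDP43 P-KO replicate 2, and the chromosome 10 locus did not pass in 6 of 21 settings, leaving out either TDP43 P-KO replicate among them. By the number of windows neither passed, nor did chr1:11083480-11084031. In 10 of the 61 transcripts (16.4%) exons held more than introns, against 3.48% of the 2071 transcripts not past the threshold with a mean TDP43 count of at least 20.

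The transcripts with the largest share of each protein were in part the same. The first place of both went to the ribosomal contig GL000220, with 1.41% and 2.14% of FOX2 counts and 0.583% and 4.03% of TDP43 counts, and the third to the mitochondrial transcript at 1703 to 3110, with 0.588% and 1.34% against 0.207% and 2.57%. For both transcripts the second replicate of each protein was the higher library, and the 2 TDP43 libraries lay on either side of the FOX2 libraries. The direction for GL000220 depends on the scaling, since its mean share was higher in TDP43 (2.30% against 1.77%) and its log2 fold change after TMM was 0.15 (edgeR quasi-likelihood adjusted p = 0.953). The locus at chr5:93488832-93929432 on the minus strand held the second largest FOX2 share, 1.32% and 1.37%, against 0.560% and 0.231% of TDP43 counts (log2 2.43, SE 0.548; edgeR quasi-likelihood adjusted p = 0.0255). This call was lost with the 4 P-KO libraries alone, without TDP43 P-KO replicate 2 and by the number of windows, where the highest edgeR quasi-likelihood adjusted p was 0.465. Among the 10 highest of FOX2, 4 more transcripts differed, namely chr5:7396518-7827321, chr1:957173-991227, chr17:80720253-80899847 and the chromosome 3 locus listed above, each with more FOX2. The first of these lost its call in the same 3 settings, and the chr1:957173-991227 locus in 7 of 22, the 4 P-KO libraries alone and leaving out either TDP43 P-KO replicate among them. Among the 10 highest of TDP43, ENST00000458748.1 was the one that differed with more TDP43.

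In introns the same test gave a similar count. Of 6203 introns tested, 481 (7.75%) differed, 409 with more FOX2 (6.59%) and 72 with more TDP43 (1.16%). Of the 481, 332 lay in transcripts that differed themselves. The same window counts enter both tests, so this overlap adds no support. The median log2 fold change was 6.64 over the 409, -7.64 over the 72 and -0.25 over all tested. With plain library totals 283 introns were higher in FOX2 and 253 in TDP43, and with a minimum of 20 counts in 2 libraries 393 and 180. Libraries of the proteins did not overlap in 61.8% of all tested introns, with FOX2 higher in 20.9% and TDP43 higher in 40.9%. Without TDP43 P-KO replicate 2 the number of calls was 194. The other protein was listed at 0 in 172 of the 409 and 56 of the 72. Over all tested introns of each direction it was 16.4% and 19.6%, against 8.91% and 8.80% over all tested transcripts, so zeros were more frequent in introns throughout.

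Few transcripts had more than 1 intron past the threshold. The FOX2 introns lay in 384 transcripts, of which 22 had more than 1 such intron and none more than 3. The TDP43 introns lay in 71 transcripts, of which 1 had 2. A single intron held over 50% of the FOX2 counts in 77.3% of the 415 transcripts with more FOX2, against 72.0% of those not past the threshold, and over 50% of the TDP43 counts in 70.5% of the 61, against 67.9%. Both shares are near those of the other transcripts. Introns are numbered in the files along the genome on both strands, so the numbers serve as names only.

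In several FOX2 introns the listed signal lay within a short stretch; the lengths of the introns themselves were not analysed here. Intron 9 of a transcript at chr15:63356863-63358083 (plus strand) had 421 and 1197 FOX2 counts in 11 and 19 windows, and 0 and 5 TDP43 counts (log2 8.09, SE 0.925; edgeR quasi-likelihood adjusted p = 0.00332). Its highest window, at 63357486, had 134 and 334 counts. The signal at chr3:51314492-51315024 (plus strand, intron 25) covered 533 nt with 265 and 856 counts, and that at chr3:58117749-58118092 (plus strand, also intron 25) covered 344 nt with 187 and 488. TDP43 was listed at 0 in both libraries for these, and the second did not pass by the number of windows. TDP43 was also at 0 at chr22:28103901-28107274 (minus strand), with 346 and 958 FOX2 counts, and at chr3:195591299-195592875 (minus strand), with 217 and 540. At chr1:213148106-213160833 (plus strand) both proteins had counts, 360 and 1067 for FOX2 and 11 and 19 for TDP43 (log2 5.31, SE 0.594; edgeR quasi-likelihood adjusted p = 0.00332).

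FOX2 had no listed P-KO count in any of the 10 TDP43 introns of smallest p. The highest in count was the chromosome 16 intron above. At chr3:48466846-48467404 (minus strand) TDP43 had 44 and 79 counts within 559 nt, and at chr19:47732536-47735448 (minus strand) 52 and 78. Others were spread thinly over long introns: at chr11:92292743-92405007 (plus strand) 26 and 23 counts lay in 10 windows of each library over 112265 nt, and at chr2:11443047-11483796 (minus strand) 27 and 34 counts in 8 and 15 windows. In WT cells FOX2 had 19 and 22 counts in the chromosome 2 intron and 31 and 28 in that on chromosome 11. It had 0 and 13 in the chromosome 16 intron and none listed in those on chromosomes 3 and 19. The edgeR quasi-likelihood adjusted p of the 10 ranged from 0.00578 to 0.0143. The long introns on chromosomes 2 and 11 did not pass with a p or q of at most 0.01, nor the loci on chromosomes 3 and 19 by the number of windows.

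**Figure D2:**
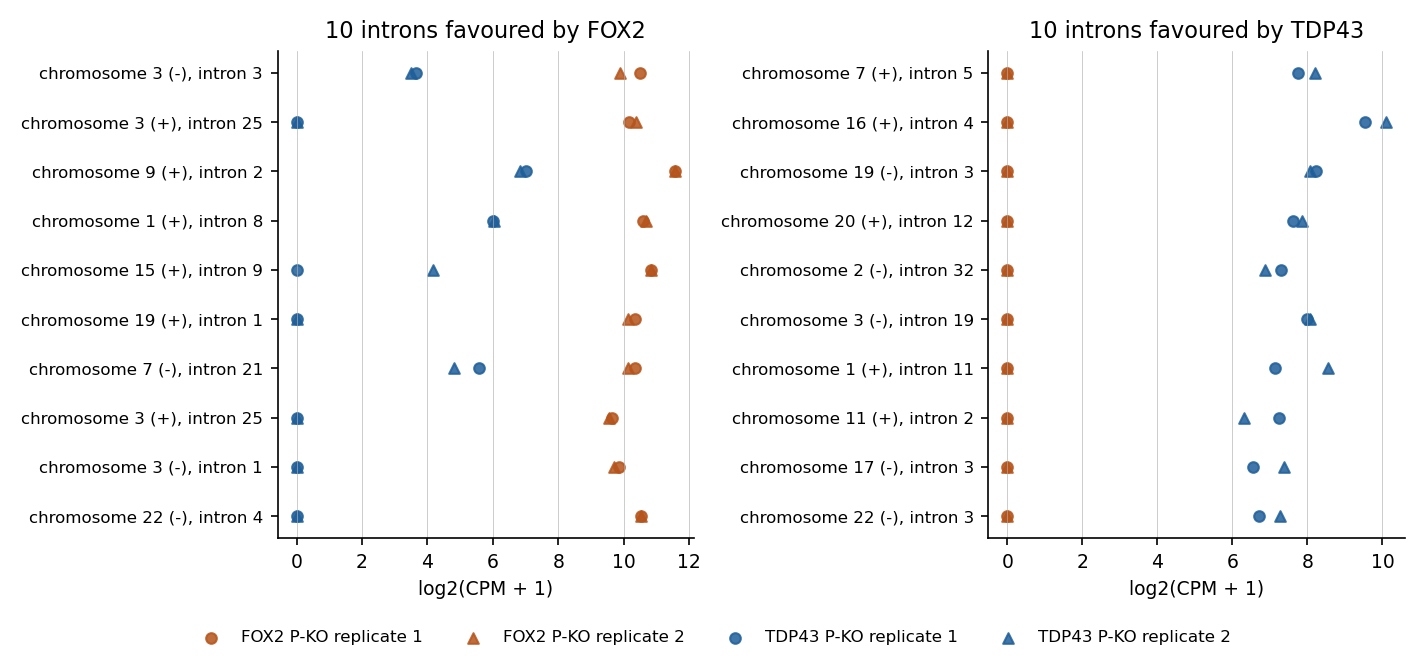
Values of the 10 introns of smallest p in each direction, as log2(CPM + 1) on the x axis, with 1 point per P-KO library (circles for replicate 1, triangles for replicate 2). The libraries of each protein lie apart from those of the other protein, as the rule that chose the introns requires, and FOX2 is at 0 in all 10 introns favoured by TDP43. Replicates of a protein differ in places, as for TDP43 in intron 11 on chromosome 1 (139 and 376 CPM).

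Of 446 transcripts with an intron past the threshold, 9 had introns past it in both directions. In each of the 9, an intron of some direction lost its call in another setting. The other protein was not always absent: the intron at chr7:1914412-1937222 (minus strand) had 112 and 1019 FOX2 counts and 12 and 25 TDP43 counts. The 3 described here were chosen after their values were seen. On the plus strand of chromosome 1, intron 7 at chr1:44044901-44053858 had 488 and 1730 FOX2 counts and 7 and 29 TDP43 counts, while intron 11 of the same transcript, at chr1:44058601-44063230, had 24 and 110 TDP43 counts with FOX2 listed at 0. On the minus strand of chromosome 5, intron 8 at chr5:1476823-1477448 had 406 and 1168 FOX2 counts with TDP43 listed at 0, and intron 15 at chr5:1497373-1500220 had 15 and 51 TDP43 counts with FOX2 listed at 0. On the plus strand of chromosome 20, intron 12 at chr20:62652469-62653502 had 34 and 67 TDP43 counts and intron 18 at chr20:62660930-62661804 had 45 and 323 FOX2 counts, the other protein being at 0 in each. In each transcript the introns of the proteins were different ones, and the other protein had few or no counts there. The edgeR quasi-likelihood adjusted p of the 6 introns ranged from 0.00332 to 0.0312. The chromosome 5 intron of TDP43 did not pass when either FOX2 P-KO replicate or TDP43 P-KO replicate 2 was left out. By the number of windows the chromosome 1 intron of TDP43 and the chromosome 20 intron of FOX2 did not pass.

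**Figure D3:**
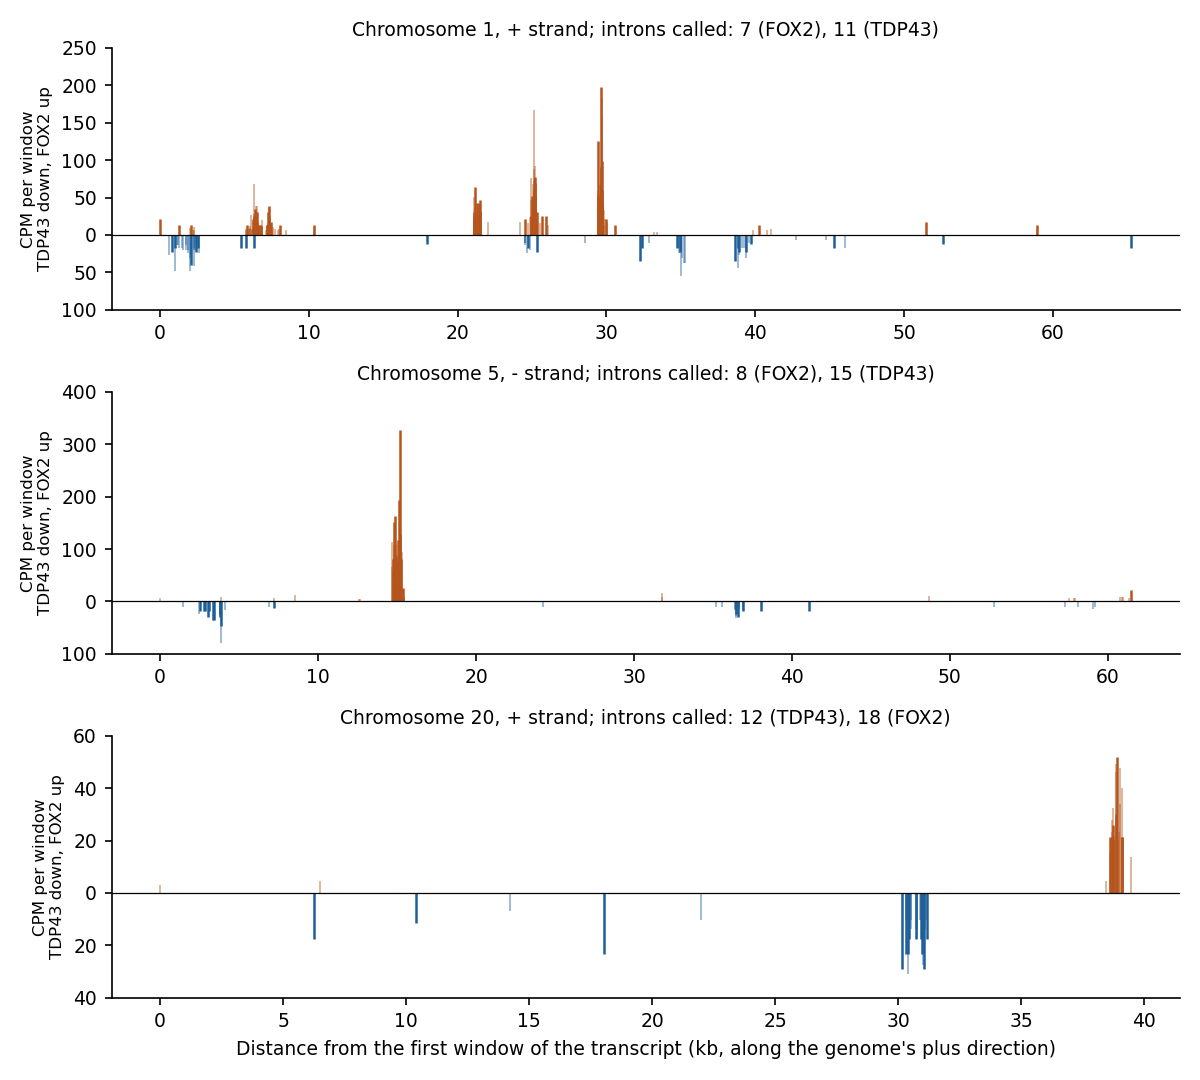
CPM per window along the 3 transcripts on chromosomes 1, 5 and 20, with FOX2 P-KO above and TDP43 P-KO below the line (dark for replicate 1, pale for replicate 2) and the distance from the first window in kb on the x axis. The FOX2 signal of each transcript stands in narrow groups of high windows, and the TDP43 signal is lower and lies mainly elsewhere.

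The windows of both proteins seldom coincided. As a share of the smaller list, 24.4% of windows overlapped by at least 1 nt between the FOX2 replicates (95% Clopper-Pearson interval 24.1 to 24.8), 5.79% between the TDP43 replicates (5.60 to 5.99) and 1.68% to 3.86% between the proteins. Of the larger list these were 13.98%, 3.53% and 1.15% to 3.41%. The intervals cover counting error only. The order depends on the list that serves as the base: TDP43 replicate 2 shared 3745 of its 97045 windows (3.86%) with FOX2 replicate 2 and 3428 (3.53%) with TDP43 replicate 1, while TDP43 replicate 1 shared more with its own replicate than with either FOX2 library.

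Windows found in both replicates numbered 14763 for FOX2 and 3315 for TDP43. Of these, 7.09% of the FOX2 windows lay within 10 nt of a window in either TDP43 library, and 19.3% of the TDP43 windows within 10 nt of one in either FOX2 library. Within 10 nt of a window of the same protein in WT cells lay 56.4% and 59.5%. Introns held 87.5% of the repeated FOX2 windows and 90.3% of the repeated TDP43 windows.

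The highest window of an intron was also seldom shared between the proteins, and little more often between the TDP43 replicates. In 492 introns with at least 20 counts in each of the 4 libraries, the highest windows of the FOX2 replicates lay within 10 nt of each other in 66 (13.4%), those of the TDP43 replicates in 17 (3.46%), and those of a FOX2 and a TDP43 library in 4 to 8 (0.813% to 1.63%). The median distance was 2928 nt between the FOX2 replicates, 19372 nt between the TDP43 replicates and 21376 to 25559 nt between the proteins. In 2 of the 492 the highest window was repeated in both proteins. On the minus strand of chromosome 3 it was at 185496360 for FOX2 and at 185538059 for TDP43, 41699 nt apart. On the plus strand of chromosome 7 it was at 125567639 and 125567638 in the FOX2 replicates and at 125567654 and 125567644 in the TDP43 replicates, side by side.

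**Figure D4:**
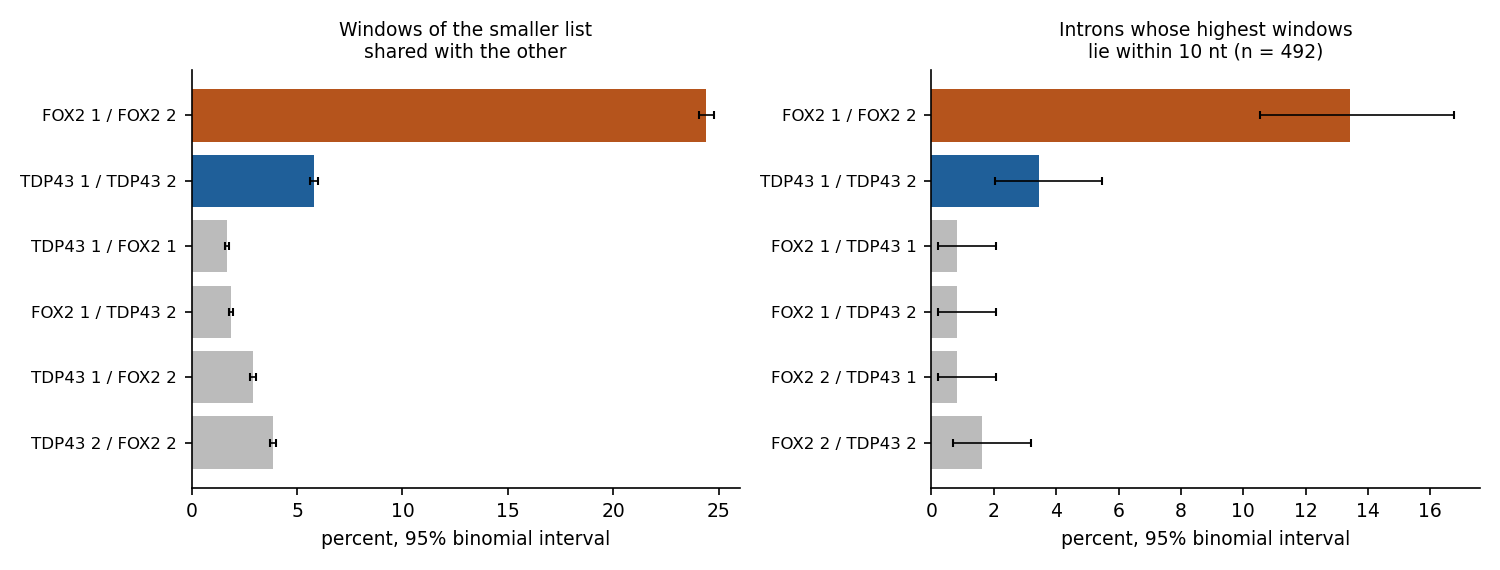
Bars give, for each pair of P-KO libraries, the percentage of windows of the smaller list that share at least 1 nt with the other list (left) and the percentage of 492 introns whose highest windows lie within 10 nt (right), with 95% Clopper-Pearson intervals. The FOX2 replicates stand highest at 24.4% and 13.4%, the TDP43 replicates follow at 5.79% and 3.46%, and all pairs of different proteins (grey) lie lower on these bases, which differ between pairs.

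FOX2 signal was gathered more tightly within an intron. Among introns with at least 20 counts in a library, the stretch within 100 nt of the highest window held over 50% of the counts in 24.3% and 26.2% of introns in the FOX2 libraries and in 3.47% and 8.74% in the TDP43 libraries. Among the introns with more FOX2 these were 42.0% and 34.5%, and among those with more TDP43 21.2% and 28.8%, of 33 and 66 introns. The part of the higher FOX2 windows in this difference was not tested.

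Over all window counts, the share in introns did not separate the proteins. It was 84.9% ± 0.915 (SD, n = 2) in FOX2 and 86.0% ± 5.19 in TDP43, a difference of -1.18 percentage points with the TDP43 libraries on either side of the FOX2 libraries at 89.7% and 82.4%. An exact two-sided permutation test over the 4 libraries gave p = 1, where the smallest possible p is 0.333, and one within genotype over 8 libraries gave p = 0.389, where it is 0.0556. The mitochondrial share was 0.425% and 3.25% in TDP43 against 0.798% and 1.70% in FOX2. This share and that of GL000220 rose from replicate 1 to replicate 2 of each protein, while the intron share fell. Without mitochondrial and GL000220 positions, the intron share was 87.5% ± 0.103 in FOX2 and 89.7% ± 1.27 in TDP43 (exact two-sided permutation p = 0.333, the smallest the 4 libraries can give). By the number of windows it was 91.1% ± 0.338 in FOX2 and 93.6% ± 0.364 in TDP43, with the same exact two-sided permutation p of 0.333. The sign turned without TDP43 P-KO replicate 1, where the difference was 2.49, and over all listed positions, where FOX2 had 77.1% ± 0.503 and TDP43 63.5% ± 15.1. Over all listed positions the exact two-sided permutation test within genotype gave p = 0.0556, its smallest possible value.

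The preferences seen in P-KO cells were set beside those in WT cells, which come from other libraries. The WT libraries also took part in the filter on low counts and in the estimate of the spread behind the P-KO calls. The WT values are therefore not independent of which transcripts and introns were called. Over all 6562 transcripts the sign was the same in 64.4%. Of the 415 transcripts with more FOX2, 408 (98.3%) had a WT fold change of the same sign, against 68.4% of all tested transcripts that were higher in FOX2, and in 377 (90.8%) the WT libraries did not overlap, against 39.6%. Of the 61 with more TDP43, 57 (93.4%) had the same sign in WT, against 61.0%, and 52 (85.2%) did not overlap, against 28.0%. In introns, 407 of 409 and 67 of 72 had the same sign, against 75.2% and 61.2% of all tested introns of each direction and 67.5% of all tested introns together. Fewer passed the threshold in WT in the same direction: 97 of the 415 and 15 of the 61 transcripts, against 101 of 3097 and 29 of 3465 tested. For introns it was 134 of the 409 and 16 of the 72, against 141 of 2770 and 26 of 3433 tested. The median WT log2 was 2.68 over the 415 and -2.91 over the 61, against 4.62 and -4.65 in P-KO. These sets were chosen by their P-KO values, which by itself favours larger fold changes and more calls there than in WT. The medians and the numbers of calls therefore do not show stronger preferences in P-KO cells. The median count of the higher group was also larger than over all tested, 165 against 32.5 for FOX2 and 36.5 against 17 for TDP43 transcripts. ENST00000458748.1 had 7849 and 8309 TDP43 counts in WT against 397 and 233 in FOX2 (log2 -4.80; edgeR quasi-likelihood adjusted p = 0.00813).

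**Figure D5:**
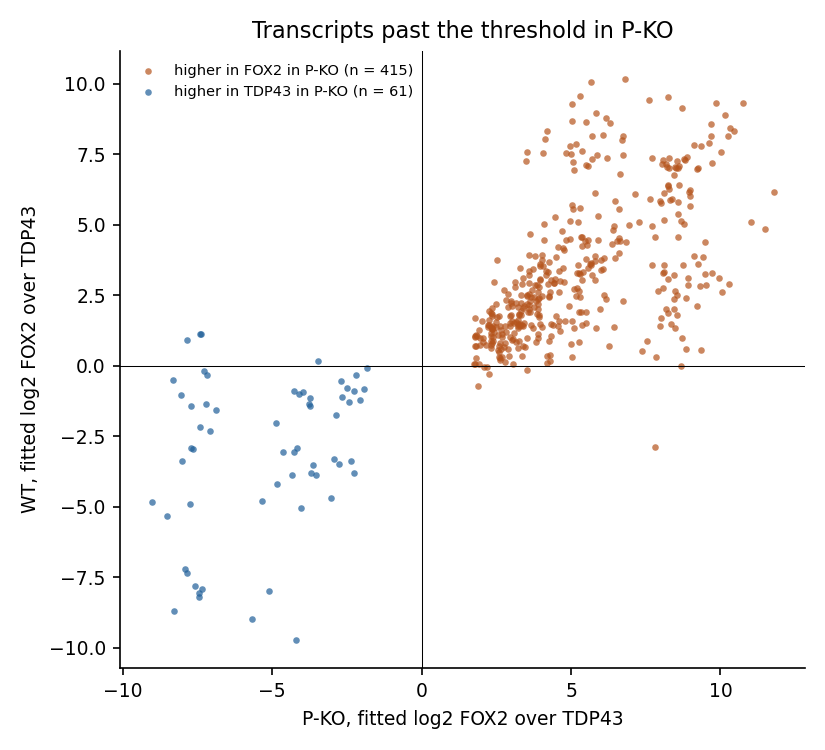
Fitted log2 of FOX2 over TDP43 in P-KO cells (x axis) and in WT cells (y axis) for the 476 transcripts past the threshold in P-KO, 1 point each; values far from 0 include transcripts listed at 0 for a protein, whose size depends on the fit. Most points lie in the upper right or lower left, 408 of 415 for FOX2 and 57 of 61 for TDP43.

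The difference between the genotypes itself was tested as an interaction. EdgeR's quasi-likelihood test called 0 of the 6562 transcripts (0%), with 472 at an unadjusted p under 0.05. It also called 0 of the 6203 introns (0%), with 419 at an unadjusted p under 0.05. For transcripts, DESeq2 called 44, all with a higher ratio of FOX2 to TDP43 in P-KO than in WT, and edgeR without a filter on low counts called 8. With 2 libraries per group, 0 calls do not show that the preferences were equal.

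In some introns with more TDP43, FOX2 signal was listed in WT and not in P-KO cells. The edgeR quasi-likelihood test between genotypes called 0 of the 6203 introns, these among them. In 28 of the 72 introns with more TDP43, both FOX2 P-KO libraries were listed at 0 while both FOX2 WT libraries were above 0, with medians of 11 and 12 counts and a range of 2 to 31. Over all 3433 tested introns that were higher in TDP43 this held for 284. The reverse, TDP43 at 0 in P-KO and above 0 in both WT libraries, occurred in 13 of the 409 introns with more FOX2 and in 34 of all 2770 tested introns that were higher in FOX2. A P-KO value of 0 for the other protein itself favours a call, so these counts are given as a description. The intron at chr11:92292743-92405007 is an example, where the WT libraries of FOX2 had 31 and 28 counts and its P-KO libraries none listed, while TDP43 had 43 and 37 in WT cells against 26 and 23 in P-KO cells. Beside these values stand the heights of the listed windows: a count of 2 made up 61.7% and 63.8% of FOX2 windows in WT cells. In P-KO cells it made up 42.2% and 16.3% of FOX2 windows and 45.9% and 67.2% of TDP43 windows. The part of the listing limit in these zeros was not tested.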

How the data were processed

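Bowtie and the build hg19 (GRCh37) are named in the submitters' processing notes, and the peak caller is not given in the sources used here. For each library the authors deposited 1 list of single nucleotides, with an Ensembl transcript, an intron number, a strand, a whole-number count that is not normalized and a p-value or q-value that was never above 0.05. Whether the deposited counts are reads or collapsed cDNAs is not stated, and the lowest listed count was 2. Of 703766 positions over the 12 libraries, 1868 carried more than 1 transcript name.

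Positions were kept highest first and at least 11 nt apart, and summed per transcript and per intron. CPM values are counts per 1000000 window counts. The 8 FOX2 and TDP43 libraries were fitted in edgeR 4.0.16 (R 4.3.3) with filterByExpr, TMM and the quasi-likelihood F test, a mean per protein and genotype, and Benjamini-Hochberg adjustment over all features tested. The SE of a log2 fold change is its size divided by the square root of F. DESeq2 1.42.0 was an alternative. Other steps used Python 3.11.15 and scipy 1.17.1. The fit was tested on simulated counts with known changes in P-KO. It recovered 1% of the transcripts changed by a log2 of 2 and 46% of those changed by 4. For introns it recovered 1% and 16%. Of the 52 simulated transcripts it called, 5 had not been changed, and of the 17 introns 0. The test between genotypes recovered 0% and 12% of these transcripts and 0% and 1% of these introns, so it could miss most differences of this size. Of the 14 transcripts it called, 2 had not been changed.

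The transcripts compared, the lists and the rules were chosen with earlier results of these data known. Named were, in each direction, the 12 transcripts and 10 introns of smallest p past the threshold with groups that did not overlap and a mean count of at least 20, the 6 largest folds with counts in all 4 libraries, and the 10 highest shares per protein; of these the text gives those that differ in kind. At most 2 identifiers per direction are printed. The planned motif count near windows was not run, since it needs a genome of this build.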

Additional observations from a re-analysis of the deposited data

How the results depend on the processing

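Of the 34 named transcripts past the threshold, 19 stayed past it in every setting that gave them a value, and of 37 introns, those in transcripts with both directions included, 17 did. None of these 34 and 37 changed direction; named transcripts not past the threshold were not followed. The number of transcripts that differed was 311 with the 4 P-KO libraries alone, 173 with all 12 libraries, 734 with DESeq2, 162 by the number of windows and 1330 in 10 kb bins, of which 743 were higher in FOX2. For introns it was 824 with the 4 libraries alone, 913 with DESeq2 and 142 by the number of windows. Leaving out 1 library gave 138 to 486 transcripts, 194 to 656 introns and 0 to 0 transcripts in the test between genotypes, which called 44 with DESeq2 and 8 without a filter on low counts. Without FOX2 P-KO replicate 2, 265 transcripts had more FOX2 and 109 more TDP43. The difference in intron share was 13.6 points over all listed positions and 1.51 with a p or q of at most 0.01, and -4.85 to 2.49 with 1 library left out; the chromosome 15 share was 0.0686% to 0.0908% (both added after seeing the data). Window overlap was 19.8% and 4.00% for the FOX2 and TDP43 replicates at 6 nt or more, and 31.3% and 4.19% with a p or q of at most 0.01. The causes of these changes were not tested.

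Same-numbered libraries deviated together only weakly: their deviations correlated at 0.0334 to 0.105 across transcripts, all positive. With the replicate number as a block, 504 transcripts, 512 introns and 0 transcripts between genotypes were called. Counts under 2 are not listed, so preferences at low counts were not detectable at this depth. The motif alternative was not run.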
